A study of Mus musculus with 26 samples.

Results

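The HSP70 chaperone family was followed in mouse testes in which the 3′UTR of *Ythdc2* carries target sites for an abundant piRNA. Its members were taken by gene symbol from the deposited expression table and comprise *Hspa1a*, *Hspa1b*, *Hspa1l*, *Hspa2*, *Hspa4*, *Hspa4l*, *Hspa5*, *Hspa8*, *Hspa9* and *Hspa14*, which are 10 of the 51124 genes listed. Ribosomal RNA was removed from total RNA of whole adult testes, and 6 libraries were sequenced from as many mice, 2 for each of 3 genotypes. N1 and N2 are wild-type, N3 and N4 come from *10xPerf* mice and N5 and N6 from *10xBulge* mice. The lines were made with CRISPR/Cas9 on the B6D2F1/J hybrid background. piRNAs are small RNAs that guide PIWI proteins to complementary transcripts. *10xPerf* mice carry 10 sites fully complementary to the piRNA piR-A in the last exon of *Ythdc2*. *10xBulge* mice carry 10 sites at the same place with mismatches opposite piRNA nucleotides 10 and 11, which were designed so that the PIWI proteins MILI and MIWI would not cut them. The paper reports that these sites were nevertheless cut in adult testes of this line. The wild-type animals carry 0 such sites. *Ythdc2* encodes an RNA-binding protein that male germ cells need for meiosis.

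HSP70 proteins bind exposed hydrophobic stretches of unfolded proteins and release them in a cycle of ATP binding and hydrolysis. J-domain proteins (HSP40) deliver clients and stimulate hydrolysis, and nucleotide exchange factors, among them the large HSP70 relatives of the HSP110 type, reset the cycle. Male germ cells express dedicated members beside the ubiquitous ones. *Hspa2* is switched on in meiotic spermatocytes and is needed for male fertility, and *Hspa1l* is expressed in the haploid spermatids that follow.

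All 10 members passed the filter on low values, which asked for 10 normalized counts or more in 2 libraries and left 23782 genes. The unit is the DESeq2-normalized count deposited by the authors, which is not a whole number of reads. Library sums were 39.8 to 59.8 M normalized counts, or roughly 41.1 to 61.6 M reads. Differences between genotypes are log2 fold changes of value + 1 from limma, with 95% intervals and p-values adjusted by the Benjamini-Hochberg method over all 23782 genes. An adjusted p under 0.1 is called a change. *Ythdc2* itself stood at 827 (N1) and 2412 (N2) normalized counts, at 1334 (N3) and 1136 (N4) with perfect sites and at 1202 (N5) and 2458 (N6) with bulge sites, and the libraries of the genotypes overlapped. The *10xBulge* libraries differed in cell type markers. The summed spermatid markers fell from between 568149 and 789220 normalized counts in wild-type to 2713 in N5 and 1350 in N6, and each of the 12 markers was lower (limma, adjusted p under 0.1). The paper saw no effect on fertility in any homozygous line and kept every line by crossing homozygotes. For *10xBulge* it reports litters that were occasionally smaller and lower expression of postmeiotic genes. Libraries of the same genotype also differed along GC content. Across 12426 genes the log ratio of N1 to N2 had a Spearman's rho of 0.61 with GC content, that of N3 to N4 -0.24 and that of N5 to N6 0.52.

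In *10xBulge* testes 2 members fell and 2 rose against wild-type. *Hspa1l* and *Hspa4l* were lower, *Hspa8* and *Hspa14* were higher, and *Hspa2*, the most abundant member, had no call. Over all genes, 23.0% were called lower and 11.4% higher in the same comparison, so 2 of 10 in each direction is near the background. Against *10xPerf*, 3 members were lower in *10xBulge* (*Hspa1l*, *Hspa4l* and *Hspa4*) and 2 higher (*Hspa8* and *Hspa1b*), beside 24.1% of all genes lower and 12.9% higher. In *10xPerf* against wild-type, limma called 0 of the 10 members, where 0.467% of all genes were called higher and 0.492% lower. At an unadjusted p under 0.05, 1 member was higher in *10xPerf*, which was *Hspa4*, beside 3.28% of all genes. The median log2 fold change of the 10 members was 0.33 for *10xBulge* against wild-type, 0.43 for *10xPerf* against wild-type and -0.05 for *10xBulge* against *10xPerf*, and that of all genes was -0.03, 0.02 and -0.07. The comparisons share libraries and are not independent of each other.

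**Figure D1:**
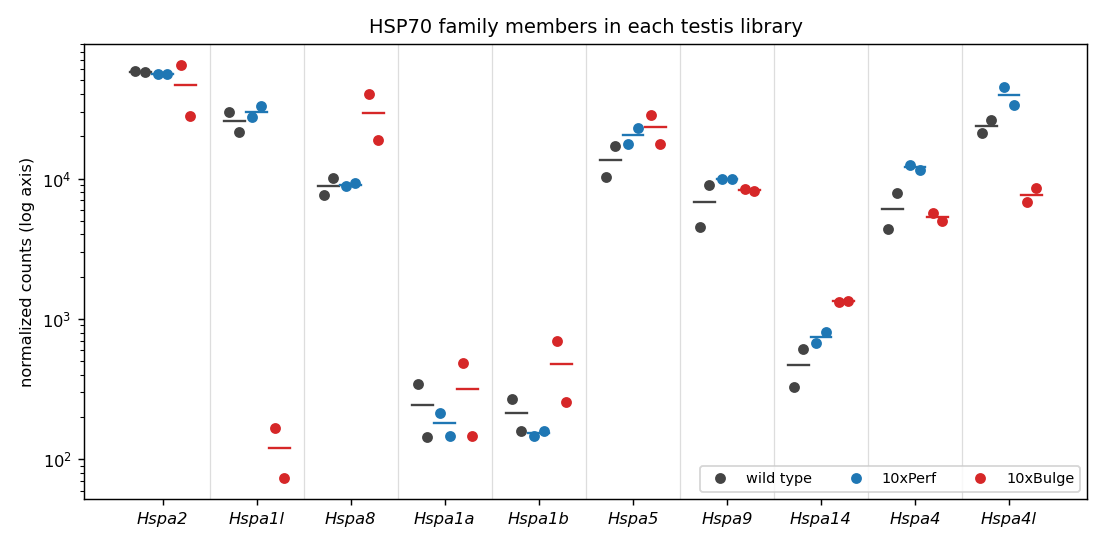
Normalized counts (log axis) of the 10 members in each library, with points for libraries and bars for the mean of the 2 libraries of a genotype. *Hspa1l* fell to 168 and 73.4 in *10xBulge*, and *Hspa2* stayed between 27819 and 64664 in all 6 libraries.

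**Figure D2:**
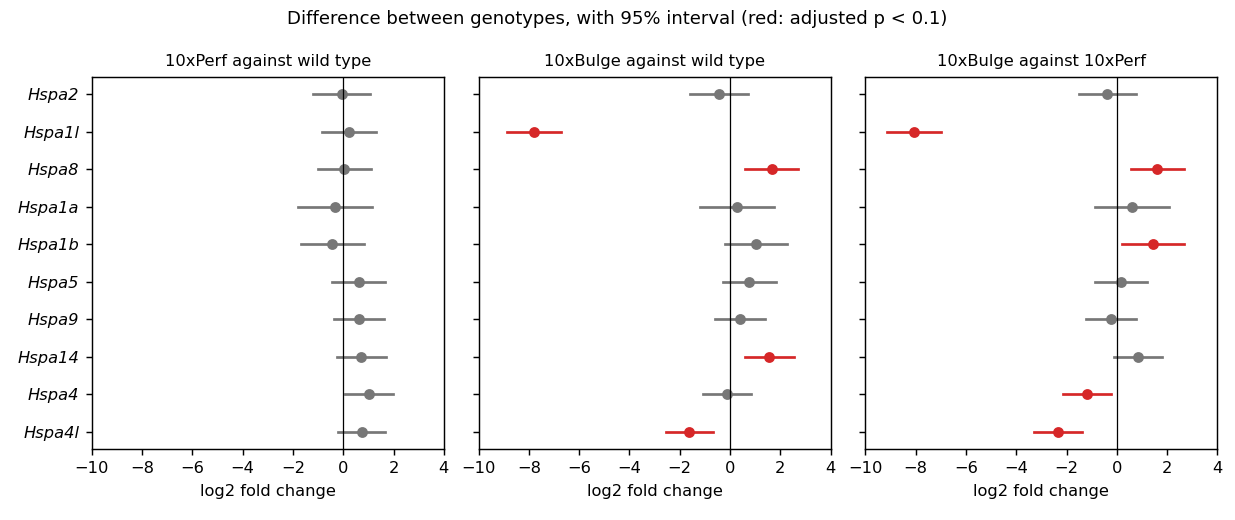
Log2 fold change (x axis) of each member in the 3 comparisons, with the 95% interval from limma as a line and red for an adjusted p under 0.1. The *Hspa1l* differences of -7.81 and -8.05 lie far below those of the other members.

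*Hspa1l* showed the largest difference of the family. This member is the germ cell relative of the stress-inducible pair and lies next to it on chromosome 17. It measured 29543 and 21440 normalized counts across the wild-type pair, 27239 and 32706 across *10xPerf* and 168 and 73.4 across *10xBulge*. Both *10xBulge* libraries were far below the other 4, which overlapped among themselves. The log2 fold change was -7.81 (SE 0.48, 95% interval -8.88 to -6.73, adjusted p = 6.95e-06) for *10xBulge* against wild-type, a 224-fold lower value, and -8.05 (SE 0.48, adjusted p = 5.49e-06) against *10xPerf*. For *10xPerf* against wild-type it was 0.25 (95% interval -0.83 to 1.32, adjusted p = 0.909). The call held in all 12 other settings and without each library in turn, with log2 fold changes against wild-type from -8.40 to -7.22 when a library was left out. The spermatid marker sums given above moved the same way in the same 2 libraries. In bulk RNA, fewer cells of a type and less RNA per cell cannot be told apart.

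The annotation places *Hspa1b*, *Hspa1a* and *Hspa1l* in this order on chromosome 17 (GRCm38, used for position only, as the counts were made on GRCm39). *Hspa1b* spans chr17:34956436-34959238 and *Hspa1a* chr17:34969190-34972156, both on the minus strand, with 9951 bp between them. *Hspa1l* starts 546 bp from *Hspa1a* on the plus strand (chr17:34972703-34979285). *Hspa1a* and *Hspa1b* have 1 exon each and *Hspa1l* has 2. The starts of *Hspa1a* and *Hspa1l* thus face away from each other, and *Hspa1a* had no call in *10xBulge*. The gene model *Gm10501*, annotated across the 3′ part of *Hspa1l* on the other strand, stood at 73.6 (N1) and 70.4 (N2) normalized counts, at 81.8 (N3) and 64.9 (N4) with perfect sites and at 60.7 (N5) and 85.0 (N6) with bulge sites. The genotypes overlapped there. The library kit keeps the strand of the RNA. The other members are scattered. *Hspa2*, with 1 exon, lies at chr12:76404176-76406938, *Hspa4l* at chr3:40744495-40796103, *Hspa4* at chr11:53259814-53300457 and *Hspa8* at chr9:40800984-40810087, while *Hspa5* (chr2:34771970-34777547) and *Hspa14* (chr2:3488850-3512814) share chromosome 2.

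The promoters of these neighbours are shown because the starts of *Hspa1a* and *Hspa1l* are 546 bp apart. Each window has 30 bases on the gene's strand, from RefSeq on GRCm38.p6, with the match in capitals.
Hspa1a: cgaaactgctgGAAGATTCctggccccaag
Hspa1b: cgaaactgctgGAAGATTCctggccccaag
Hspa1l: ggcgtgtccggTGACGTGAtcctctccaat
The first 2 windows (minus strand, chr17:34972242-34972271 for *Hspa1a* and chr17:34959324-34959353 for *Hspa1b*) hold the heat shock element GAANNTTC, the site type that heat shock factors bind, at positions -104 to -97 from the RefSeq start. They are the same letter for letter, and the 2 promoters differ at 4 of 300 bases. The third window (plus strand, chr17:34972621-34972650) holds TGACGTNA, which resembles the cAMP response element, at positions -71 to -64. Promoters from 250 bases before to 50 after the start were searched on both strands for 8 of the 10 members. *Hspa8* and *Hspa9* had no entry. GAANNTTC occurred in *Hspa1a* and *Hspa1b* and in 7.86% of all 32841 promoters of the table, its other order TTCNNGAA in no member and in 8.52% of all, and TGACGTNA in *Hspa1l* and *Hspa5* and in 2.93% of all. A match here describes letters and is not a binding site.

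*Hspa2* was the most abundant member per length. It encodes the meiotic HSP70 that accompanies the synaptonemal complex and assists the CDK1 kinase. It measured 57970 and 57010 normalized counts across the wild-type pair, 55118 and 55049 across *10xPerf* and 64664 and 27819 across *10xBulge*. The *10xBulge* libraries lay on either side of the rest. Limma gave a log2 fold change of -0.44 (95% interval -1.58 to 0.70, adjusted p = 0.562) for *10xBulge* against wild-type and -0.06 (95% interval -1.20 to 1.08, adjusted p = 0.978) for *10xPerf* against wild-type. Without N6 the first was 0.17 and without N5 it was -1.05, and neither had an adjusted p under 0.1. The summed spermatocyte markers were 44212 and 69899 in wild-type and 62188 and 62865 in *10xBulge*, and 1 of the 12 was called higher and 1 lower.

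The ratio of *Hspa1l* to *Hspa2* within a library does not depend on how libraries are scaled. The log2 ratio of normalized counts was -0.97 and -1.41 for the wild-type mice, -1.02 and -0.75 for *10xPerf* and -8.58 and -8.55 for *10xBulge*. The *10xBulge* libraries were close to each other and more than 7 log2 units below the rest. The mean difference from wild-type was -7.37 (exact two-sided permutation p = 0.333, the smallest that 2 libraries against 2 allow).

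*Hspa8* encodes the constitutive cytosolic HSP70 (HSC70), which is present in nearly all cells and uncoats clathrin vesicles among its tasks. It stood at 7598 (N1) and 10027 (N2) normalized counts, at 8804 (N3) and 9270 (N4) with perfect sites and at 39865 (N5) and 18881 (N6) with bulge sites. Both *10xBulge* libraries were above the other 4, and they differed from each other more than the rest did. The log2 fold change was 1.65 (SE 0.47, 95% interval 0.60 to 2.70, adjusted p = 0.0295) against wild-type and 1.60 (SE 0.47, adjusted p = 0.0315) against *10xPerf*. The call against wild-type was lost without N1 (1.45, adjusted p = 0.163) and without N5 (1.11, adjusted p = 0.107). That against *10xPerf* was lost without N3 (adjusted p = 0.201), N4 (adjusted p = 0.141) or N5 (1.06, adjusted p = 0.124). For *10xPerf* against wild-type the log2 fold change was 0.05 (95% interval -1.0 to 1.10).

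Markers of somatic cells moved with *Hspa8*, and the spermatogonia sum rose with a less even set of genes. Summed Leydig markers were 50112 and 70960 normalized counts in wild-type, 285571 in N5 and 137284 in N6, with 4 of 6 called higher and none at 0. Summed Sertoli markers were 63210 and 62866 in wild-type, 235401 in N5 and 103892 in N6, with 6 of 8 called higher. Summed macrophage markers were 2476 and 3443 in wild-type, 11268 in N5 and 7125 in N6, with 6 of 6 called higher. Summed spermatogonia markers were 10116.5 and 7624 in wild-type, 17394 in N5 and 13609.7 in N6, with 1 of 8 called higher and 1 lower. The gene called higher was *Kit*, at 1652 and 1473 in wild-type, 5556 in N5 and 4738 in N6. *Nanos3* was called lower (log2 fold change -1.60), and 7 of the 8 had a log2 fold change above 0. N5 was above N6 for *Hspa8* and for each of these 4 sums. The part of these cells in the *Hspa8* difference was not tested.

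**Figure D3:**
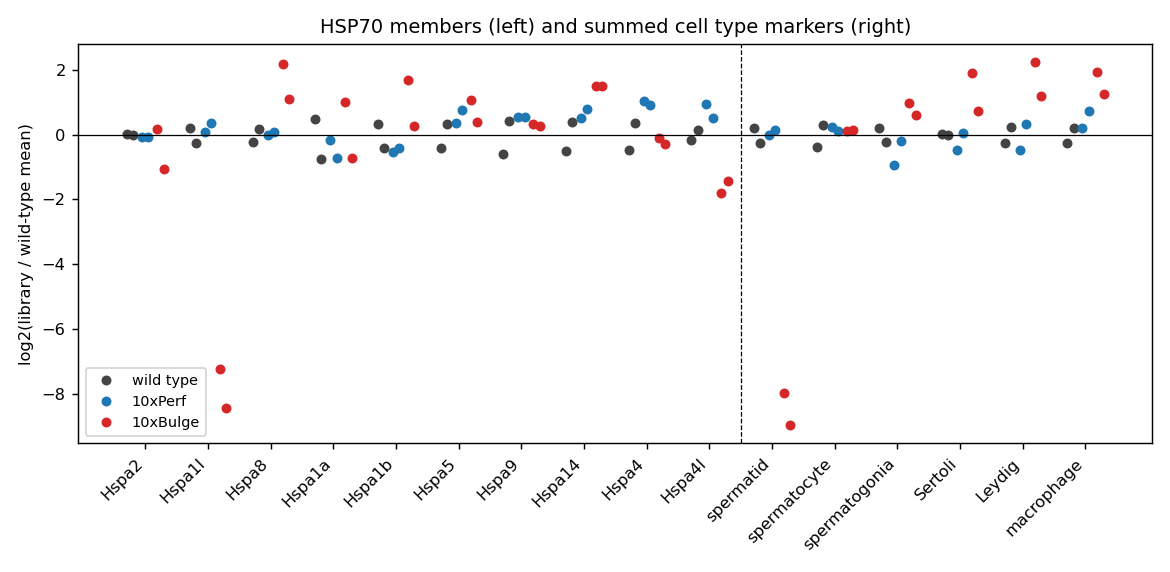
Log2 of each library over the mean of the 2 wild-type libraries (y axis) for the members and for the summed markers of 6 cell types. *Hspa1l* and the spermatid sum lie below -7 in both *10xBulge* libraries, and *Hspa8* and the spermatogonia, Sertoli, Leydig and macrophage sums lie above 0 there, with N5 above N6.

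The log2 ratio of *Hspa2* to *Hspa8* within a library was 2.93 and 2.51 for the wild-type mice, 2.65 and 2.57 for *10xPerf* and 0.70 and 0.56 for *10xBulge*. Although *Hspa2* differed widely between N5 and N6, this ratio did not, and it was lower in both than in the other 4 libraries. The mean difference from wild-type was -2.09 (exact two-sided permutation p = 0.333). Of the 100-base stretches of the longest *Hspa8* transcript, 62.8% also occur in transcripts of other genes. The 6 genes with the most such stretches were processed pseudogenes, and any others were not looked at. The values of these 6 were low beside those of *Hspa8*. *Gm15459*, which shares most stretches with it, was listed at 0 in N1 and N2 and had 33.3 and 25.7 normalized counts in *10xPerf* and 51.6 and 50.1 in *10xBulge*.

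The stress-inducible pair *Hspa1a* and *Hspa1b* was at the low end of the family. Both encode the HSP70 that heat and other stress induce. *Hspa1a* measured 343 and 145 normalized counts across the wild-type pair, 215 and 147 across *10xPerf* and 490 and 148 across *10xBulge*. *Hspa1b* stood at 268 (N1) and 159 (N2) normalized counts, at 146 (N3) and 160 (N4) with perfect sites and at 693 (N5) and 254 (N6) with bulge sites. N5 was the highest library for both, and N6 was within the wild-type range for both.

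Against wild-type, *10xBulge* differed by 0.27 on the log2 scale for *Hspa1a* (95% interval -1.19 to 1.73, adjusted p = 0.796) and by 1.02 for *Hspa1b* (95% interval -0.22 to 2.26, adjusted p = 0.204). *Hspa1b* passed the threshold with library totals (1.40, adjusted p = 0.0601), with protein-coding totals (1.3, adjusted p = 0.076), with the GC trend removed (1.05, adjusted p = 0.0785) and without N6 (1.74, adjusted p = 0.0305). The *Hspa1b* difference from *10xPerf* was 1.45 (SE 0.55, adjusted p = 0.0786), and this call was lost without any 1 of 5 libraries. Without N5 the difference was 0.73 (adjusted p = 0.352), and without N1, N2, N3 or N4 it stayed between 1.38 and 1.52 with adjusted p from 0.112 to 0.318. It was also lost with a filter of 1 in 1 library (adjusted p = 0.112), with only the 2 genotypes fitted (adjusted p = 0.116) and without the mean-variance trend (adjusted p = 0.108). Of the 100-base stretches of *Hspa1a*, 48.6% also occur in another gene, and so do 49.9% of those of *Hspa1b*, with 1350 common to both, so the division of reads between them is uncertain. Their summed value gave 0.68 against wild-type (adjusted p = 0.422) and 1.05 against *10xPerf* (adjusted p = 0.208).

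*Hspa5* encodes BiP, the HSP70 of the endoplasmic reticulum and a regulator of its unfolded protein response. It measured 10179 and 17119 normalized counts across the wild-type pair, 17683 and 22962 across *10xPerf* and 28443 and 17752 across *10xBulge*. The *10xBulge* libraries were above wild-type, N6 by little. Its difference from wild-type was 0.77 on the log2 scale (95% interval -0.28 to 1.81, adjusted p = 0.255), and it passed the threshold when libraries were scaled by their totals (1.15, adjusted p = 0.0547) or by totals over protein-coding genes (1.05, adjusted p = 0.0749), settings that also raised the median of all genes to 0.36 and 0.26. The *Hspa5* promoter is shown for its endoplasmic reticulum stress element, with the 2 windows on the plus strand.
Hspa5 element: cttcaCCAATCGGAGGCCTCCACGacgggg
Hspa5 CRE-like: gggcgtagcaaTGACGTGAgttgcggagga
The first (chr2:34772020-34772049, GRCm38.p6) holds CCAAT followed after a gap of 9 bases by CCACG, at positions -65 to -47, and 0.119% of all promoters hold this pattern on either strand. It includes a CCAAT box, which occurs in 37.4% of all. The second (chr2:34771922-34771951) holds the TGACGTNA pattern also found in *Hspa1l*.

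*Hspa9* encodes mortalin, the HSP70 of the mitochondrial matrix. It stood at 4502 (N1) and 9000 (N2) normalized counts, at 9908 (N3) and 9866 (N4) with perfect sites and at 8440 (N5) and 8172 (N6) with bulge sites. Only N1 stood apart, below the other 5 libraries. On the log2 scale the difference was 0.38 (95% interval -0.61 to 1.38, adjusted p = 0.561) for *10xBulge* and 0.64 (95% interval -0.36 to 1.63, adjusted p = 0.853) for *10xPerf* against wild-type.

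*Hspa14* encodes a ribosome-associated member that works with the J-domain protein DNAJC2. It measured 329 and 614 normalized counts across the wild-type pair, 679 and 810 across *10xPerf* and 1331 and 1339 across *10xBulge*. The genotypes did not overlap, and the *10xBulge* libraries were nearly equal. *10xBulge* differed by a log2 fold change of 1.57 (SE 0.43, 95% interval 0.60 to 2.53, adjusted p = 0.0256) from wild-type, and the call was lost without N1 (1.12, adjusted p = 0.150). Against *10xPerf* it was 0.85 (95% interval -0.12 to 1.81, adjusted p = 0.171), and it passed the threshold with library totals (adjusted p = 0.0771), protein-coding totals (adjusted p = 0.0738) and the GC trend removed (adjusted p = 0.0741). *Gm45902*, which shares 13.1% of the 100-base stretches of *Hspa14*, stood at 44.4 and 91.8 normalized counts without sites and at 148 and 289 with bulge sites (1.68, adjusted p = 0.0481). The gene of its partner, *Dnajc2*, was not called (log2 fold change -0.49, 95% interval -1.50 to 0.52, adjusted p = 0.454).

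The HSP110-type members *Hspa4* and *Hspa4l* act as exchange factors for other HSP70 proteins, and *Hspa4l* is the one abundant in testis. *Hspa4l* stood at 20988 (N1) and 26078 (N2) normalized counts, at 45136 (N3) and 33252 (N4) with perfect sites and at 6759 (N5) and 8626 (N6) with bulge sites. The 3 genotypes did not overlap, with *10xPerf* highest. The log2 fold change was -1.62 (SE 0.42, 95% interval -2.56 to -0.67, adjusted p = 0.0199) for *10xBulge* against wild-type, a 3.06-fold lower value, and -2.34 (SE 0.42, adjusted p = 0.00259) against *10xPerf*. Both calls held in the 12 other settings and without each library in turn. The *10xPerf* difference from wild-type of 0.73 was not called (95% interval -0.21 to 1.67, adjusted p = 0.853).

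*Hspa4* measured 4369 and 7822 normalized counts across the wild-type pair, 12547 and 11484 across *10xPerf* and 5701 and 4958 across *10xBulge*. Wild-type and *10xBulge* overlapped, and *10xPerf* was above both. For *10xPerf* against wild-type the log2 fold change was 1.04 (SE 0.42, unadjusted p = 0.0364 and adjusted p = 0.749 in limma). For *10xBulge* it was -0.14 against wild-type (95% interval -1.09 to 0.82, adjusted p = 0.844) and -1.17 against *10xPerf* (SE 0.42, adjusted p = 0.0674). The last call was lost with library totals (adjusted p = 0.109), with protein-coding totals (adjusted p = 0.108) and without N3 (adjusted p = 0.298), N4 (adjusted p = 0.194) or N6 (adjusted p = 0.125). *Hspa4l* fell by 1.62 on the log2 scale in *10xBulge* where *Hspa4* had no call, and the difference between these 2 changes was not tested.

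Libraries that did not overlap between genotypes were more frequent than calls. In *10xPerf* against wild-type, 5 members lay wholly above (*Hspa4*, *Hspa4l*, *Hspa5*, *Hspa9* and *Hspa14*) and 1 wholly below (*Hspa2*), beside 20.2% and 19.8% of all genes. In *10xBulge* against wild-type, 3 lay above and 2 below, beside 28.9% and 33.2%, and against *10xPerf* 3 lay above and 4 below, beside 30.7% and 35.3%. All 5 members above in *10xPerf* were lower in N1 than in N2, and their transcripts had GC contents of 39.5 to 47.6%, against 51.2 to 58.9% for the other 5. With each library's GC trend removed, the log2 fold changes of these 5 were smaller but still above 0, at 0.86 for *Hspa4*, 0.44 for *Hspa4l*, 0.39 for *Hspa5*, 0.43 for *Hspa9* and 0.59 for *Hspa14*, and none was called. The part of GC content in these differences was not tested.

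Per kilobase of the longest transcript, the order of the members in wild-type was *Hspa2* (22759 normalized counts per kb), *Hspa1l* (10312), *Hspa5* (3717), *Hspa8* (3681), *Hspa4l* (2483), *Hspa9* (2214), *Hspa4* (1320), *Hspa14* (263), *Hspa1a* (82.2) and *Hspa1b* (76.3). *Hspa5* and *Hspa8* overlapped between libraries, as did *Hspa4l* with *Hspa9*, *Hspa9* with *Hspa4*, and *Hspa1a* with *Hspa1b*. Within N1 and within N2, *Hspa9* was above *Hspa4*. The place of *Hspa4l* depends on the length used, since its longest transcript has 9479 bases. With the mean length of its coding transcripts it reached 7555 per kb. That length also puts *Hspa8* (5366) above *Hspa5* (4343) in wild-type. In *10xBulge* the order was *Hspa2* (18306 per kb), *Hspa8* (12269), *Hspa5* (6290), *Hspa9* (2724), *Hspa4* (1154), *Hspa4l* (812), *Hspa14* (744), *Hspa1b* (169), *Hspa1a* (107) and *Hspa1l* (48.9). *Hspa2* and *Hspa8* overlapped between libraries there, and so did *Hspa4l* with *Hspa14*, and *Hspa1a* with *Hspa1b* and with *Hspa1l*. Within N5 and within N6, by the longest transcript, *Hspa2* was above *Hspa8*, and *Hspa1b* was above *Hspa1a* and that above *Hspa1l*. With the mean length, *Hspa8* (17885) came close to *Hspa2* (18314) in *10xBulge*, and *Hspa4l* (2470) stood above *Hspa4* (1154). *Hspa1l* had moved from the second place to the last with either length.

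Shares of the family's summed normalized counts per kb were taken with the longest transcripts and depend on that length. *Hspa1l* made up 26.0% and 18.1% for the wild-type mice, 21.0% and 24.1% for *10xPerf* and 0.122% and 0.101% for *10xBulge*. *Hspa8* made up 6.92% and 8.74% for the wild-type mice, 7.0% and 7.05% for *10xPerf* and 29.8% and 26.9% for *10xBulge*. *Hspa2* made up 50.02% and 47.1% for the wild-type mice, 41.5% and 39.7% for *10xPerf* and 45.8% and 37.6% for *10xBulge*. Shares sum to the whole, so a fall of 1 member raises the others.

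**Figure D4:**
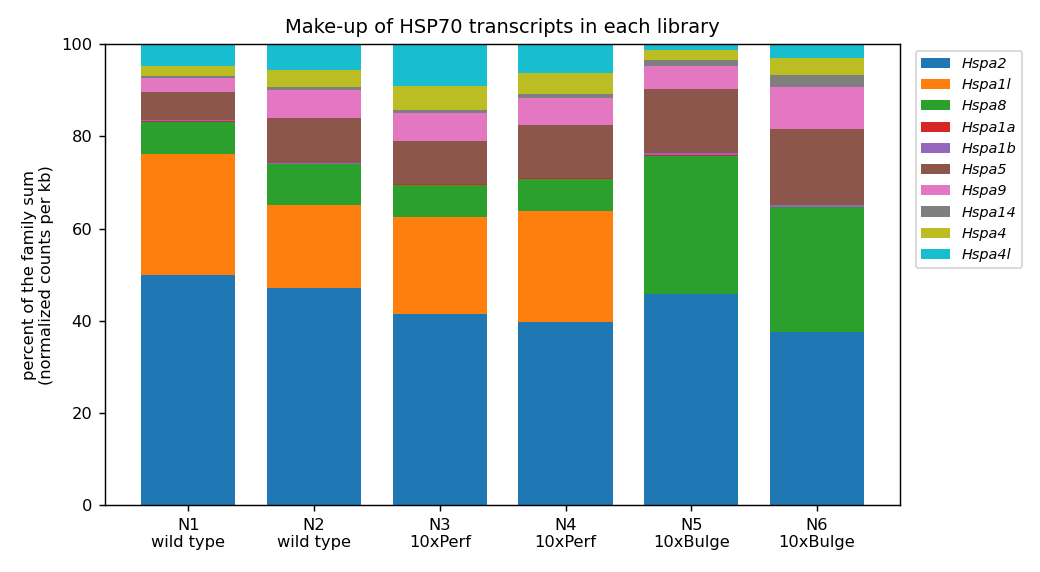
Share of each member (stacked bars, percent) in the family's summed normalized counts per kb of longest transcript, for each library. The *Hspa1l* segment of 18.1 to 26.0% is at most 0.122% in N5 and N6, and the *Hspa8* segment is 26.9 to 29.8% there.

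HSP70 partners, HSP70 relatives and other chaperone and stress genes were counted in 9 chaperone lists with 131 genes tested. Against wild-type, *10xBulge* had 10 of them higher and 27 lower, beside the 11.4% and 23.0% of all genes given above. The median log2 fold change of the lists was -0.02, near that of all genes. In *10xPerf*, 1 was higher and 0 lower by limma, beside 0.467% and 0.492% of all genes. At an unadjusted p under 0.05, 3 were higher and 1 lower (2.29% and 0.763%, beside 3.28% and 2.8% of all genes). The gene called was *Dnajc25*, a J-domain protein, whose normalized counts of 233 and 268 compared with 1051 and 919 in *10xPerf* (1.97, SE 0.40, adjusted p = 0.0864).

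Of 49 J-domain co-chaperones, 13 fell (26.5%) and 3 rose (6.12%) in *10xBulge*, with a median log2 fold change of -0.40. These shares, like the counts of calls in the lists that follow, are to be read beside the 23.0% lower and 11.4% higher over all genes. The deepest falls by p were in *Dnajb8* (from 22746 and 11396 to 39 and 28.1 normalized counts, log2 fold change -8.88), *Dnajc5b* (-6.01) and *Dnajb7* (-7.95), each with an adjusted p of at most 1.20e-05. *Dnajc5*, the cysteine string protein of secretory vesicles, rose by 1.10 (adjusted p = 0.0868), *Dnajc12* by 1.40 (adjusted p = 0.0738) and the endosomal *Dnajc13* by 1.37 (adjusted p = 0.0977). *Dnajc13* was also above wild-type in *10xPerf* (3482 and 2993 normalized counts). Its *10xBulge* difference from *10xPerf* was 0.23 (limma, adjusted p = 0.793). Of 16 exchange factors and other co-chaperones, 2 fell, *Bag5* (-1.78, adjusted p = 0.0169) and *Bag1* (-1.55, adjusted p = 0.0308), and 1 rose, the mitochondrial *Grpel2* (1.13, adjusted p = 0.0844). The median of this list was -0.14.

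Among 9 genes listed as germ cell partners of HSPA2, 4 fell and 1 rose, with a median of -1.04. *Tnp1* (-9.89) and *Tnp2* (-10.11), the transition proteins that HSPA2 is reported to chaperone, and the sperm surface hyaluronidase *Spam1* (-4.93) fell, each with an adjusted p of at most 3.79e-05. *Tnp1* and *Tnp2* are also in the spermatid marker list. *Cdk1*, the kinase whose cyclin complex HSPA2 assists in spermatocytes, rose by 1.03 (adjusted p = 0.0938).

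Of 25 genes for folding and the unfolded protein response in the endoplasmic reticulum, 3 fell and 0 rose by limma, with a median of 0.59. At an unadjusted p under 0.05, 4 were higher (16%) and 3 lower (12%). Counts at this unadjusted threshold, here and below, are to be read beside 13.9% of all genes higher and 24.5% lower. The testis-specific disulfide isomerase *Pdilt* (-5.54) and calreticulin *Calr3* (-4.72) fell, and so did *Herpud1* (-2.37, adjusted p = 0.00485), which acts in degradation of misfolded proteins. Of 16 genes listed as mitochondrial partners of HSPA9, which include other mitochondrial chaperones and proteases, 2 rose and 2 fell. *Hspe1* (1.41, adjusted p = 0.0481) and *Grpel2* rose, and *Pam16* (-1.18, adjusted p = 0.0637) and *Dnajc19* (-1.0, adjusted p = 0.0954) fell. Their median was 0.40.

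Of 9 small heat shock proteins tested, 3 rose and 2 fell, with a median of 0.18. *Hspb8* (2.46, adjusted p = 0.00765), *Cryab* (1.71, adjusted p = 0.0247) and *Hspb1* (1.09, adjusted p = 0.0881) rose, and the sperm tail gene *Odf1* (-6.65) and *Hspb9* (-3.39, adjusted p = 0.0024) fell. *Hspb8* was also above wild-type in *10xPerf* (138 and 255 normalized counts). Its *10xBulge* difference from *10xPerf* was 0.12 (limma, adjusted p = 0.896). Of 13 genes of HSP90 and its co-chaperones, 1 rose, the glucocorticoid-responsive *Fkbp5* (1.39, adjusted p = 0.0917), and 0 fell, also at an unadjusted p under 0.05, with a median of 0.55. Of 6 genes of heat shock factors (*Hsf1*, *Hsf2*, *Hsf4* and *Hsf5*) and their binding proteins (*Hsbp1* and *Hsbp1l1*), limma called 0, and 0 were under an unadjusted p of 0.05, with a median of -0.23. The distant relatives *Hspa12b* (-1.89, adjusted p = 0.0209) and *Hspa12a* (-1.28, adjusted p = 0.0436) fell, and *Hspa13* had 0.51 (adjusted p = 0.418). *Hspa12a* was also below wild-type in *10xPerf* (924 and 1303 normalized counts). Its *10xBulge* difference from *10xPerf* was -0.19 (limma, adjusted p = 0.761).

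**Figure D5:**
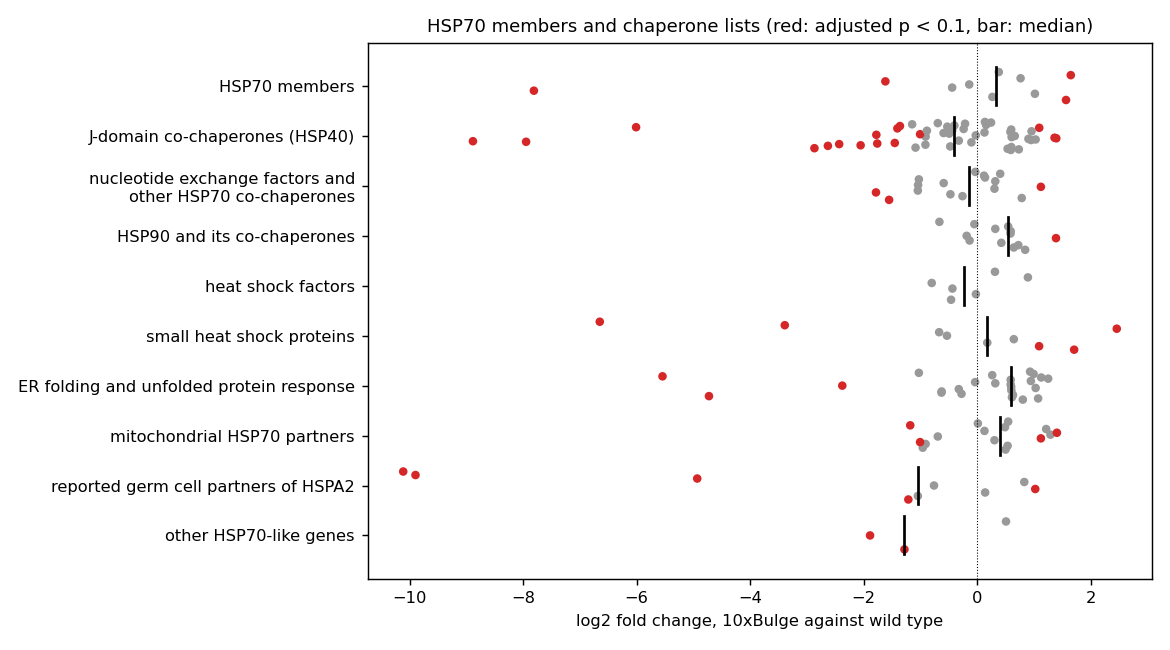
Log2 fold change of *10xBulge* against wild-type (x axis) for the 10 members and the genes of the 9 chaperone lists. Each gene is a point, red for an adjusted p under 0.1, and a black bar marks the median. Falls below -4 are seen in *Hspa1l*, 3 J-domain genes, *Odf1*, *Pdilt*, *Calr3*, *Tnp1*, *Tnp2* and *Spam1*.

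For 5 members the tested genes with the most similar profile over the 6 libraries were found by the root mean square difference of centred log2 values. For *Hspa1l* these were *4933439N14Rik* (0.12 log2 units), *Dscaml1* (0.15) and *Cst13* (0.18), which fell to at most 11.8 normalized counts in *10xBulge*. For *Hspa4l* they were *Lrrfip2* (0.06), *Ppp1r2-ps4* (0.09) and *Tsnaxip1* (0.10), all highest in *10xPerf*. For *Hspa8* they were *Drp2* (0.09), *Ctsk* (0.10) and *Sfxn5* (0.12), and for *Hspa2* *Snrnp35* (0.09), *Exosc10* (0.09) and *Gm15267* (0.09). For *Hspa1a* they were *Trim14* (0.09), *2310022A10Rik* (0.13) and *Cpsf1* (0.14).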

How the data were processed

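Testis RNA-seq libraries of 3 genotypes were analysed, and the 20 MILI and MIWI immunoprecipitation libraries were not used here. The authors assigned single-end reads to Ensembl transcripts on GRCm39 with salmon and its GC correction, and deposited DESeq2-normalized counts per gene, a signal that is not whole reads (19.3% of genes were whole multiples of a step in every library, within 0.01). The same file holds DESeq2 log2 fold changes of each line against wild-type computed by the authors. It also holds the adjusted p-values the authors obtained for them, and neither was used.

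From these values, genes that reached 10 in 2 or more libraries were fitted as log2(value + 1) by limma 3.58.1 under R 4.3.3 (a term per genotype, mean-variance trend, no covariate), and other steps ran in Python 3.11.15. Such fold changes understate the change of low genes. The members and all lists were chosen with earlier results of these data known. All members are named, and in each list up to 3 genes per direction with the smallest p among those called whose libraries do not overlap. On simulated data for *10xBulge* against wild-type over 23782 genes, 47.0% of genes changed by 4 on the log2 scale were recovered, 4.48% of those changed by 2 and 0% of those changed by 1, and 5.56% of calls were false. The simulated noise was independent between genes and held no GC difference between libraries. The false share in the real libraries may therefore differ. Alternatives were other scalings, filters, pseudocounts (0.1 and 10), thresholds and fits, removal of the GC trend, summing *Hspa1a* and *Hspa1b*, and leaving out each library. Scaling by protein-coding totals was chosen after seeing the data. Annotation came from GENCODE on GRCm38.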

Additional observations from a re-analysis of the deposited data

How the results depend on the processing

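The falls of *Hspa1l* and *Hspa4l* in *10xBulge* were called in every setting tried and without each library in turn. With 2 libraries per genotype, members without a call may still differ. Changes of 1 on the log2 scale were not recovered in simulated data with 200 changed genes. In the real *10xBulge* comparison, where far more genes were called, changes near this size did pass, such as that of *Cdk1* (1.03). No paired analysis was possible because the labels give no pairing of libraries between genotypes. Scaling by library totals raised the calls over all genes in *10xBulge* against wild-type from 2712 higher and 5466 lower to 5788 and 4745, and protein-coding totals gave 5012 and 4950, while a filter of 10 in every library gave 2599 and 2926. With both scalings 4 members were higher there. Genes of the chaperone lists were 33 higher with library totals and 28 with protein-coding totals, against 13 from *10xPerf* with either. The GC trend removed gave 19 list genes higher against wild-type, no mean-variance trend gave 4, and a filter of 1 in 1 library, the fit of only the 2 genotypes compared and an adjusted p under 0.05 gave 3 each. These last 3 settings, no mean-variance trend and the summed pair left 1 member higher against *10xPerf*. *Hspa1b* lost its call there, except in the summed pair, where it was not tested on its own. In *10xPerf* against wild-type the list genes higher were 2 after removal of the GC trend, under the filter of 10 throughout and in the fit of 2 genotypes, and 0 in the other settings where the count changed.

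Without 1 library, members higher ranged from 0 to 3 both against wild-type (0 without N1) and against *10xPerf*, list genes higher from 2 to 23 against wild-type and from 1 to 14 against *10xPerf*, list genes lower from 20 to 36 against *10xPerf*, and list genes higher in *10xPerf* from 0 to 2. The log2 ratio of *Hspa1l* to *Hspa2* differed by -7.59 to -7.15 between *10xBulge* and wild-type and by 0.088 to 0.53 between *10xPerf* and wild-type. The ratio of *Hspa2* to *Hspa8* differed by -2.30 to -1.88 and by -0.32 to 0.10. With the GC trend removed it differed by 0.33 between *10xPerf* and wild-type and by -2.41 between *10xBulge* and *10xPerf*.

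Some members without a call changed sign. In *10xPerf* against wild-type, *Hspa2* had 0.072 under library totals and 0.18 once the GC trend was removed, where *Hspa1a* had 0.14, *Hspa1b* 0.0042 and *Hspa8* -0.15. In *10xBulge* against wild-type, *Hspa4* had 0.25 with library totals and 0.15 with protein-coding totals, and *Hspa9* against *10xPerf* had 0.013 with the latter. Without 1 library, the log2 fold changes ran from -0.94 to 0.30 for *Hspa1a* and from -0.15 to 0.25 for *Hspa8* in *10xPerf*. In *10xBulge* against wild-type they ran from -0.59 to 1.13 for *Hspa1a*, from -1.05 to 0.17 for *Hspa2*, from -0.56 to 0.28 for *Hspa4* and from -0.12 to 0.88 for *Hspa9*. Against *10xPerf* they ran from -0.27 to 1.45 for *Hspa1a*, from -0.99 to 0.23 for *Hspa2* and from -0.18 to 0.50 for *Hspa5*. Why they changed was not tested.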

Other observations

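The genes around *Hspa1l* were looked at after its fall was seen. Within 100 kb of it on chromosome 17 (GRCm38), 20 other genes were tested in *10xBulge* against wild-type. Of these 4 were lower and 1 higher, near or under the 23.0% and 11.4% of all genes, and the median was -0.0024. *Ly6g6c* went from 1200.2 and 949 normalized counts to 9.47 and 5.43 (-7.02, adjusted p = 7.45e-06), and *Mpig6b* beside it fell by 4.80 (adjusted p = 0.000274). The valyl-tRNA synthetase gene *Vars* fell by 2.80 (43112 and 29172 against 5886 and 4379, adjusted p = 0.000973) and the histone methyltransferase gene *Ehmt2* by 1.62 (adjusted p = 0.0558). The complement gene *C2* rose by 1.21 (adjusted p = 0.0968). *Lsm2*, which follows on the far side of *Hspa1l*, had -0.93 (adjusted p = 0.162).

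*Gm15459*, the processed pseudogene with the most sequence in common with *Hspa8*, was listed at 0 in both wild-type libraries and above 25 normalized counts in the other 4, and limma called it in both *10xPerf* (adjusted p = 0.0104) and *10xBulge* (adjusted p = 0.000134). No fold is given because the wild-type libraries are at 0. *Hspa8* itself did not differ in this way between *10xPerf* and wild-type.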
